A study of Mus musculus with 8 samples.

Results

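The Smad genes encode the proteins that carry TGFβ and BMP signals from receptors at the membrane to the nucleus, and all 8 genes of the family, Smad1 to Smad7 and Smad9, were measured here in Neuro2a cells, an established mouse neuroblastoma line. They were chosen as the whole family, by name, out of 19938 genes that a transcript cluster of the array names alone. Earlier results of these data were known when the family was chosen. Each of the 8 is measured by 1 such cluster. The study compared anchorage dependent (AD) cells with anchorage independent (AI) cells, 4 arrays each, to ask what drives the switch between them, with Id2 and the TGFβ/Smad pathway in view. AD cells had grown attached in DMEM with 10% fetal bovine serum. AI cells had grown as tumorspheres in NeuroCult medium, which is made for neural stem cells, supplemented with heparin (2 µg/ml), bFGF (10 ng/ml) and EGF (20 ng/ml). Attachment and medium therefore cannot be told apart, and both phenotypes come from a single line, whose background strain the labels give as AJ. The labels call the replicates biological and the design text speaks of independent cultures, whereas the methods speak of replicate hybridizations; if no separate cultures lie behind them, the p-values measure technical spread only.

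The receptor-regulated Smads are phosphorylated by active receptor complexes and fall into 2 branches. Smad2 and Smad3 serve the receptors of TGFβ, activin and Nodal, and Smad1, Smad5 and Smad9 (also called Smad8) serve those of the BMPs. Either branch joins the common Smad4 to enter the nucleus and bind DNA. Smad6 and Smad7, the inhibitory Smads, block the receptors or compete for Smad4, and are themselves induced by the signals that they end. In sympathetic precursors, the normal counterpart of neuroblastoma, BMPs from the dorsal aorta start the noradrenergic program.

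RefSeq promoter sequences (GRCm38.p6, windows of 300 bases around a transcription start) were held for Smad1, Smad3, Smad5, Smad6 and Smad9. Those of Smad3, Smad6 and Smad9 are shown because these genes moved together between the phenotypes. They were searched on both strands for GTCTG, which holds the core of a Smad binding element, for GGCGCC and GCCGNCGC, GC-rich letters of BMP-responsive elements, and for CACGTG, the E-box of MYC proteins. The palindromic Smad element GTCTAGAC, which shares its first letters with GTCTG but cannot contain it, was added after the sequences were read. Capitals mark matches, and all 3 are written 5′ to 3′ on the strand of the gene.
Smad9 (chr3:54755332-54755631, plus strand): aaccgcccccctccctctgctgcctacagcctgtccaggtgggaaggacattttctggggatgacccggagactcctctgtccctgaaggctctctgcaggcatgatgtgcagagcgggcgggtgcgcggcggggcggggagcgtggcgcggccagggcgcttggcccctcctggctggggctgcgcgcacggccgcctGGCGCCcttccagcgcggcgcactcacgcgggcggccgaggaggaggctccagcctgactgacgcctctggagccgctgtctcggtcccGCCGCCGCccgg
Smad6 (chr9:64022010-64022309, minus strand): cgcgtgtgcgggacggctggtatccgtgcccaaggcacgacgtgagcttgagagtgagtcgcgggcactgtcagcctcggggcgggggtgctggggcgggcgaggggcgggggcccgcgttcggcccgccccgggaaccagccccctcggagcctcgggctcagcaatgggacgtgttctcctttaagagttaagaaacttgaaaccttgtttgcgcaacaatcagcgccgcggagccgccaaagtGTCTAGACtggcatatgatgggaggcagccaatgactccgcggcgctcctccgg
Smad3 (chr9:63757945-63758244, minus strand): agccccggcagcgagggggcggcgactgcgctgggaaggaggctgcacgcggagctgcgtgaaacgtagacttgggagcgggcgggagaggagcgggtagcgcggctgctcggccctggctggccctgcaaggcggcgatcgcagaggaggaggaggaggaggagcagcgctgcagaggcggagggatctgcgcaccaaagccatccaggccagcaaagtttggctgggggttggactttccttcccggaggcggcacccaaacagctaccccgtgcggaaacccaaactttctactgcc

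The Smad9 window held GGCGCC beginning 51 bases before the start and a GCCGNCGC match beginning 38 bases after it. The Smad6 window held GTCTAGAC beginning 4 bases before the start, across it, and the Smad3 window held none of the 5. Of all 32851 RefSeq promoters, 49.6% hold GTCTG, 11.9% GGCGCC, 9.76% GCCGNCGC, 7.15% CACGTG and 0.213% GTCTAGAC. Smad5, whose level did not separate the phenotypes, held GGCGCC and GCCGNCGC too, at 2 of its 3 starts, and GTCTG at the remaining one. Matches were therefore not limited to genes that moved. The windows of the 5 genes were rich in GC, between 63% and 73.7%, where the median of all promoters was 52.7%. A match of letters describes the sequence only.

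Over all 35556 clusters, 495 were called higher in AD cells and 901 lower, at an adjusted p under 0.05 (limma, Benjamini-Hochberg) and a ratio of at least 1.5-fold; with each array centred on its median these became 731 and 647. The array medians lay between 5.82 and 5.92 log2 in AD cells and between 5.92 and 5.99 log2 in AI cells, and arrays give no counts, so that their number limits the precision. The second principal component (15.1% of the variance) set AD replicate 4 apart, and each called Smad is given with and without it. Of 16 listed genes of neuroblastoma and sympathoadrenal cells, 14 were measured and all 14 lay above the median signal of every array. Of these, 5 were called higher in AD cells and none lower, beside 1.39% and 2.53% of all clusters. They were Dbh 8.03-fold, Mycn 3.51-fold, Phox2a 2.19-fold, Ncam1 1.64-fold and Th 1.52-fold. At any fold, 9 of the 14 passed with higher signals in AD cells and 2 with lower signals, beside 8.5% and 9.62% of all clusters. The 2 were Chgb (-0.49, adjusted p = 0.000204 in limma) and Gata2 (-0.23, adjusted p = 0.0376 in limma). The part of these genes in the results on the Smads was not tested. A signal above every array median also held for 2 of 6 Schwann cell and glial markers (Pmp22 and Erbb3) and 1 of 6 endothelial markers (Pecam1), and for none of 8 fibroblast and 8 leukocyte markers. No marker of these other cell types was called between the phenotypes, although Erbb3 (-0.52, adjusted p = 0.0017) and Vwf (-0.40, adjusted p = 0.00274) had lower signals in AD cells in limma, under the fold threshold. These are bulk samples, in which fewer cells of a type and less RNA per cell cannot be told apart.

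Of the 8 Smads, 4 were higher in AD cells. Smad9, Smad6, Smad7 and Smad3 rose 2.16-fold to 2.99-fold, none of the 8 was called lower, and Smad1, Smad2, Smad4 and Smad5 were not called. The 4 of 8 genes called higher compare with 1.39% of all clusters called higher, and the count of none lower with 2.53%. At any fold, 4 Smads passed an adjusted p of 0.05 toward AD cells, where 8.5% of clusters did, and 1 Smad passed toward AI cells, where 9.62% did. The median log2 ratio of AD over AI of the 8 genes was 0.64, beside -0.00078 for all clusters. By class, 1 of 2 TGFβ receptor Smads, 1 of 3 BMP receptor Smads, both inhibitory Smads and not the common Smad were called.

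**Figure D1:**
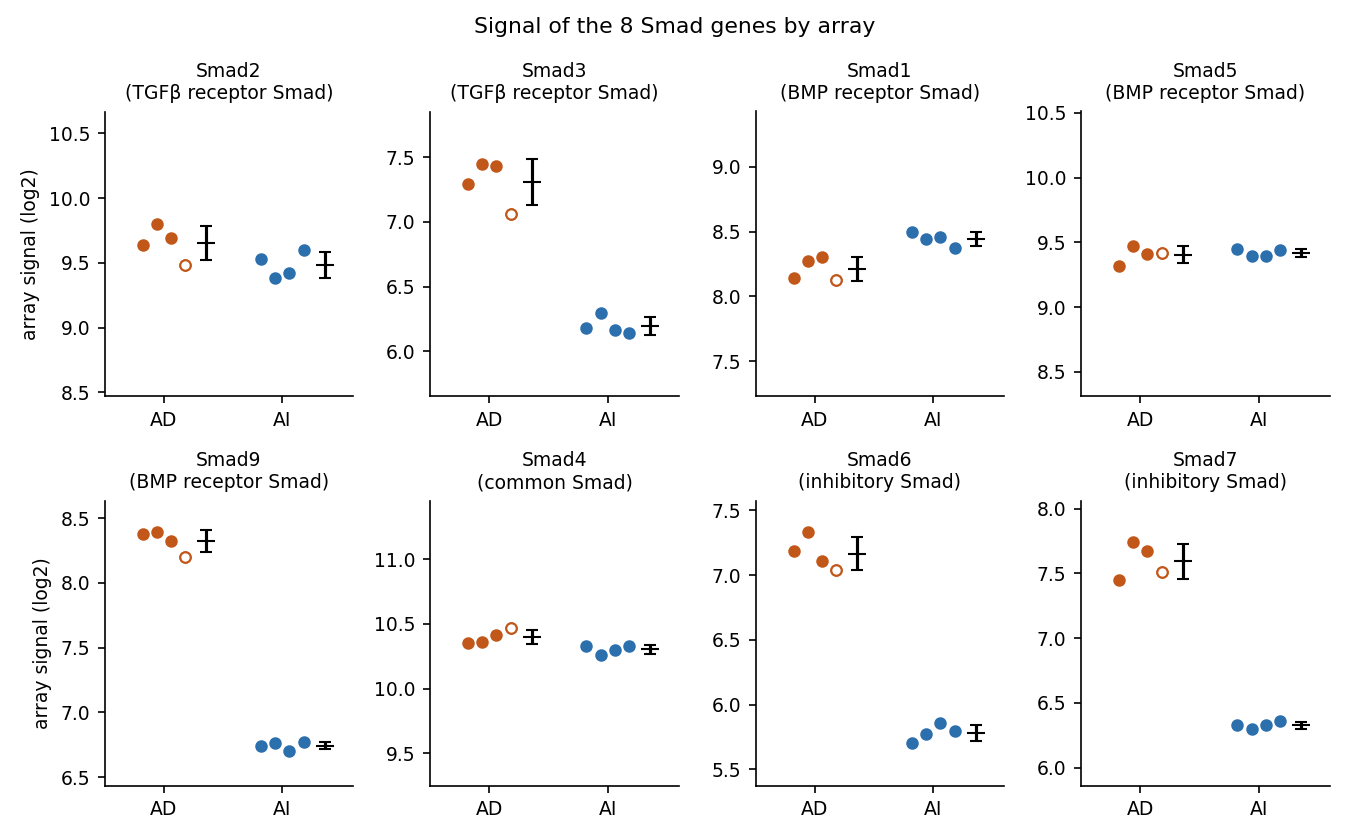
Array signal (log2, y axis) of each Smad gene in AD and AI cells, in panels of equal span. Each dot is an array, 4 per phenotype, the open dot is AD replicate 4, and bars give the mean and SD; Smad3, Smad9, Smad6 and Smad7 separate widely, with Smad9 at 8.32 log2 in AD cells against 6.74 log2 in AI cells.

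Smad9, the BMP receptor Smad that is itself induced by BMP signals, had the largest change of the family. Its signal was 8.38, 8.40, 8.32 and 8.20 log2 in AD replicates 1 to 4 and 6.74, 6.76, 6.70 and 6.77 log2 in AI replicates 1 to 4. The AD arrays all lay above the AI arrays, with a gap of 1.43 log2 between the nearest arrays. The ratio was 2.99-fold (8.32 ± 0.09 against 6.74 ± 0.03 log2, SD, n = 4 each), or 1.58 ± 0.06 (standard error) on the log2 scale, with an adjusted p of 6.5e-07 in limma. Its absolute log2 ratio ranked 46th among the 35556 clusters, and was 1.62 without AD replicate 4.

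The other BMP receptor Smads did not follow it. Smad1 was 8.14, 8.28, 8.30 and 8.12 log2 in the AD arrays and 8.50, 8.45, 8.46 and 8.37 log2 in the AI arrays. All AI arrays lay above the AD arrays, by 0.07 log2 at the nearest, which made Smad1 the only member with its mean difference toward AI cells beyond the adjusted threshold. Its log2 ratio was -0.23 (standard error 0.06, adjusted p = 0.028 in limma), 1.18-fold and under the fold threshold. The adjusted p rose to 0.18 with arrays centred on their medians, to 0.0615 with the replicate number as a block, and to between 0.0642 and 0.0807 without AD replicate 1 or without AI replicate 1, 2 or 3. Smad5 was 9.32, 9.47, 9.41 and 9.42 log2 in AD cells and 9.45, 9.39, 9.39 and 9.44 log2 in AI cells. The phenotypes overlapped, and the log2 ratio of -0.01 had a 95% interval of -0.13 to 0.11 (adjusted p = 0.908 in limma), so that a change of 1.5-fold lay outside it.

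Of the TGFβ receptor Smads, Smad3, which binds DNA directly, was the one that rose. It stood at 7.29, 7.45, 7.43 and 7.06 log2 in AD cells and at 6.18, 6.29, 6.17 and 6.15 log2 in AI cells. No array of either phenotype reached the other, and AD replicate 4 was the lowest of the AD arrays. The ratio was 2.16-fold (7.31 ± 0.18 against 6.20 ± 0.07 log2, SD, n = 4 each), or 1.11 ± 0.09 (standard error) on the log2 scale with an adjusted p of 6.56e-05 in limma, and became 1.19 without AD replicate 4. Smad2, whose usual form does not bind DNA by itself, was 9.64, 9.80, 9.69 and 9.49 log2 in AD cells and 9.53, 9.39, 9.42 and 9.60 log2 in AI cells. The arrays overlapped. Its log2 ratio was 0.17 with a 95% interval of -0.01 to 0.35 (adjusted p = 0.185 in limma), and 0.23 without AD replicate 4 (adjusted p = 0.0528 in limma).

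Smad4, the partner that both branches share, was 10.35, 10.36, 10.41 and 10.47 log2 in AD cells and 10.33, 10.26, 10.29 and 10.33 log2 in AI cells. The lowest AD array lay 0.02 log2 above the highest AI array. The log2 ratio of 0.09, 1.07-fold, had a 95% interval of -0.02 to 0.21 (adjusted p = 0.262 in limma).

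Both inhibitory Smads rose in AD cells. Smad6, which acts mainly on the BMP branch, stood at 7.18, 7.33, 7.11 and 7.04 log2 in AD cells and at 5.70, 5.77, 5.86 and 5.79 log2 in AI cells. The gap between the nearest arrays was 1.18 log2. The ratio was 2.61-fold (7.17 ± 0.13 against 5.78 ± 0.06 log2, SD, n = 4 each), or 1.38 ± 0.07 (standard error) on the log2 scale with an adjusted p of 6.47e-06 in limma, and 1.43 without AD replicate 4. Its AI signal lay below the median of each of the 4 AI arrays, so that the true ratio may differ. Smad7, which acts on both branches, stood at 7.45, 7.74, 7.68 and 7.51 log2 in AD cells and at 6.33, 6.30, 6.33 and 6.36 log2 in AI cells. Here too the phenotypes did not overlap, with a gap of 1.09 log2. The ratio was 2.40-fold (7.59 ± 0.14 against 6.33 ± 0.03 log2, SD, n = 4 each), or 1.26 ± 0.07 (standard error) on the log2 scale with an adjusted p of 9.91e-06 in limma, and became 1.29 without AD replicate 4. In absolute log2 ratio Smad6 ranked 76th, Smad7 101st and Smad3 169th of all clusters.

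In 6 of the 8 genes the arrays of the phenotypes did not overlap, where 22.1% of all clusters did not. The exact two-sided permutation p of each of these 6 was 0.0286, the smallest that 4 arrays against 4 can give. The AD arrays varied more than the AI arrays in all 8 genes and in 63.1% of all clusters; without AD replicate 4 this held for 7 of the 8 and for 46.9% of clusters. AD replicate 4 was the lowest AD array for 5 of the 8, and for 31.1% of all clusters.

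**Figure D2:**
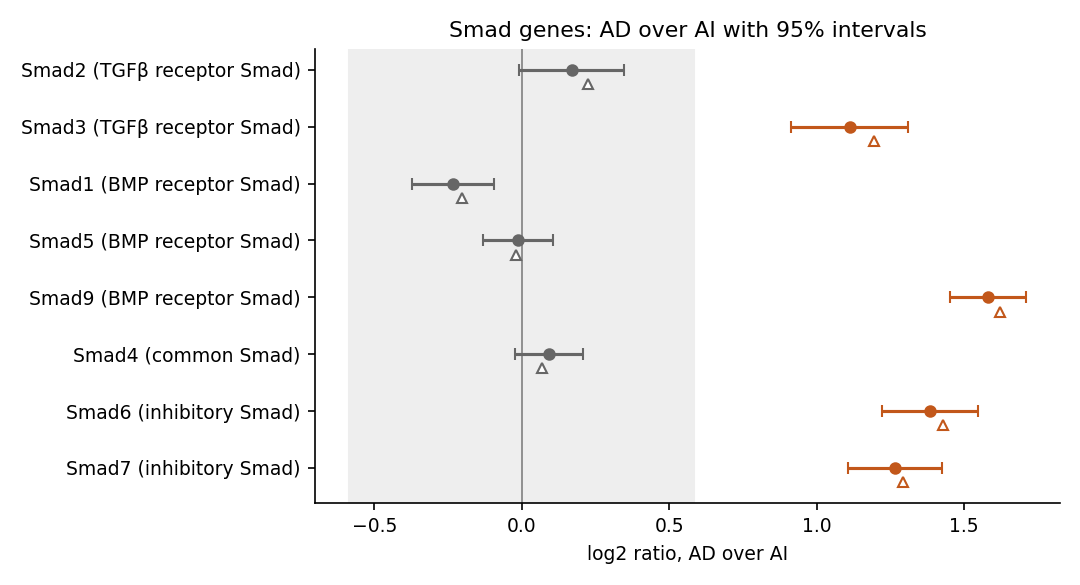
Log2 ratio of AD over AI (x axis) of the 8 Smad genes by class. Dots with bars are limma estimates with 95% intervals, orange where called, open triangles are the ratios without AD replicate 4, and the grey band marks less than 1.5-fold; Smad3, Smad6, Smad7 and Smad9 lie to the right of the band, from 1.11 to 1.58.

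Whether relatives changed unequally was asked on each array, as the difference between the log2 signals of 2 Smads, which was then compared between the phenotypes. Exact two-sided permutation tests over the 8 arrays were run for 5 pairs, with Benjamini-Hochberg adjustment over the pairs. The difference Smad9 minus Smad1 was higher in AD cells by 1.81 log2 (95% interval 1.67 to 1.95, exact permutation p = 0.0286, adjusted 0.0357). Smad9 minus Smad5 was higher by 1.59 log2 (95% interval 1.45 to 1.74), and Smad3 minus Smad2 by 0.94 log2 (95% interval 0.74 to 1.15), each with no overlap and the same p. Within both branches, then, 1 receptor-regulated Smad changed by more than its relatives. The gaps of Smad9 (1.43 log2) and Smad3 (0.77 log2) between the nearest arrays already fixed the separation of these 3 differences. Their p-values thus restate the single-gene results, and the intervals give the size.

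Smad5 minus Smad1 differed by 0.22 log2 (95% interval 0.10 to 0.34), with each AD array above each AI array and the same exact permutation p. The inhibitory pair was the exception. Smad7 minus Smad6 was 0.27, 0.41, 0.57 and 0.47 log2 in AD cells and 0.63, 0.52, 0.47 and 0.57 log2 in AI cells, which overlap. The difference of -0.12 log2 had a 95% interval of -0.29 to 0.05 (exact permutation p = 0.114, adjusted 0.114).

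**Figure D3:**
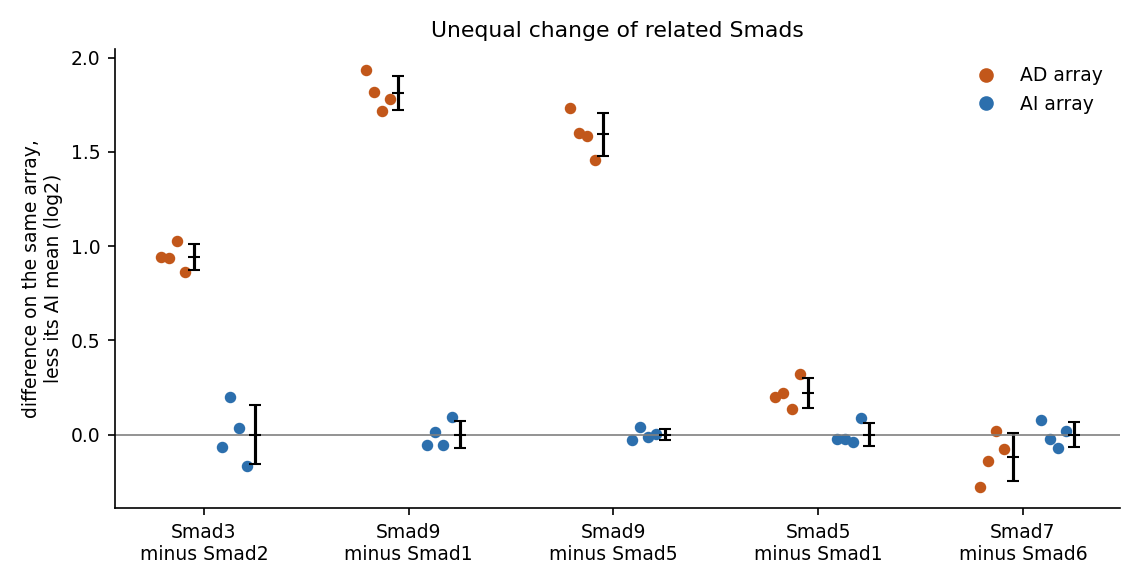
Difference in log2 signal between 2 Smads on the same array, less its mean over the AI arrays (y axis, log2), for 5 pairs. Each dot is an array, orange AD and blue AI, with means and SD in black; AD and AI arrays part for the first 4 pairs, by 1.81 log2 for Smad9 minus Smad1, and overlap for Smad7 minus Smad6.

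Smad3 and Smad6 are neighbours in the RefSeq annotation (GRCm38.p6), on the same strand, with no other protein-coding gene between them. Of the flanking genes, Aagab and Iqch on the side of Smad3 had log2 ratios of 0.31 (adjusted p = 0.00656 in limma) and 0.06 and were not called. On the side of Smad6, Lctl had 0.24 (adjusted p = 0.0175 in limma) and was not called. Zwilch, a kinetochore gene, was higher in AD cells with 0.71 (adjusted p = 0.00159 in limma). Aagab, Lctl and Zwilch therefore each passed the adjusted threshold toward AD cells, as both Smads and 8.5% of all clusters did. Of the flanking genes only Zwilch was called, where 1.39% of all clusters were called higher. A shift of the region as a whole was not tested. The 2 Smads had the largest log2 ratios of these 6 adjacent genes. The mean signals of Iqch and Lctl, from 4.74 to 4.99 log2, lay below all array medians, which limits their ratios.

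Profiles across the 8 arrays were compared by the root mean square difference of log2 signals, each gene centred on its own mean, over 19930 other genes. This measure describes these arrays and rests mostly on the step between the phenotypes, which all genes named by it share. Closest to Smad3 were Xylb, a xylulose kinase gene, with 0.055 log2, Slc36a1, an amino acid transporter gene, with 0.064, and Phox2a, a homeobox gene of noradrenergic neurons, with 0.064. Closest to Smad9 were Astn2, an astrotactin of neuronal migration, with 0.061, the retinoic acid binding gene Crabp1 with 0.072 and the orphan receptor gene Gpr12 with 0.093. Closest to Smad7 were Hr, a nuclear corepressor gene, with 0.081, the adaptor gene Dok4 with 0.086 and Gm807 with 0.101. Closest to Smad6 were Lrrtm3, a synaptic adhesion gene, with 0.087, the sulfotransferase gene Chst15 with 0.102 and again Dok4 with 0.113. Among the 4 called Smads, Smad6 and Smad7 were closest with 0.106, followed by Smad6 and Smad9 with 0.117 and Smad3 and Smad7 with 0.120, while Smad3 and Smad9 were at 0.248.

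**Figure D4:**
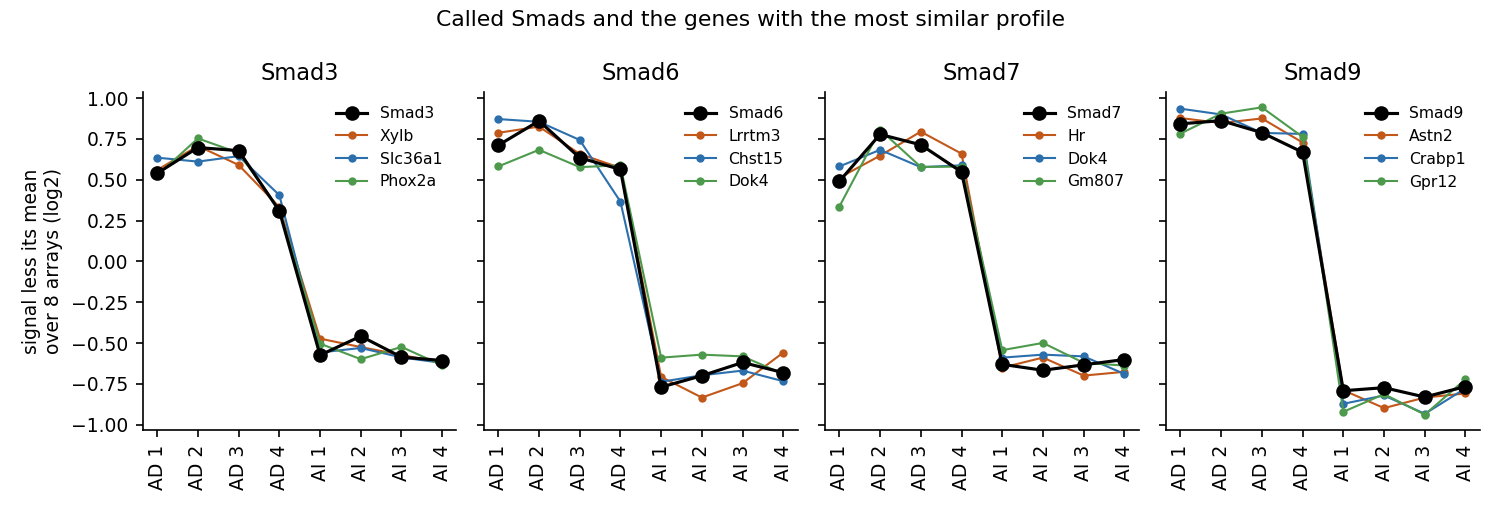
Signal of Smad3, Smad6, Smad7 and Smad9 (black) and of the 3 genes nearest to each (colours), each less its mean over the 8 arrays (y axis, log2), by array (x axis). Lines join the arrays only to guide the eye. All genes shown step down from AD to AI cells, and the root mean square difference between Xylb and Smad3 is 0.055 log2.

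Most of the rest of the pathway was not called. Among 169 measured pathway genes other than the Smads, 11 were higher in AD cells, 8 were lower and 150 were not called, beside 1.39% of all clusters higher and 2.53% lower. Many were dim. Signals above every array median held for 5 of 31 ligands, 11 of 19 receptors, 7 of 24 extracellular regulators and 26 of 32 nuclear partners. They also held for 28 of 31 anchors and enzymes, 12 of 27 TGFβ-induced and 7 of 19 BMP-induced transcripts, Smads included. For a dim gene, the lack of a call does not show a steady level. Of 31 ligand genes, Tgfb3 was higher in AD cells, Inha, the inhibin alpha subunit, was lower and 29 were not called. Tgfb3 stood between 7.39 and 7.75 log2 in AD cells and between 6.64 and 6.95 log2 in AI cells, a ratio of 0.75 ± 0.09 (standard error) on the log2 scale with an adjusted p of 0.000745 in limma. Inha had -0.62 and was not called under quantile normalization, median centring or array weights, or without AD replicate 4 or AI replicate 4 (-0.56 to -0.54). Its AD signal lay below the median of each AD array. The median log2 ratio of the ligands was 0.01. Regardless of fold, 1 ligand passed in limma with a higher signal in AD cells and 3 with lower signals, beside 8.5% and 9.62% of all clusters. Tgfb1 and Tgfb2 had 0.15 (adjusted p = 0.438) and -0.35 (adjusted p = 0.00179), under the fold threshold.

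Of 19 receptors and coreceptors, Bmpr1b, a type I BMP receptor, was higher in AD cells, and 2 coreceptors were lower, Tgfbr3, or betaglycan, which presents TGFβ, and Rgmb, which binds BMPs. Their log2 ratios were 0.60, -0.87 and -0.84, and Bmpr1b fell under 1.5-fold without AD replicate 2, AI replicate 3 or AI replicate 4 (0.54 to 0.58). Bmpr1b lay below the array median in each AI array, and Tgfbr3 in AD replicates 1, 2 and 3, so that their true ratios may differ. At any fold, 6 receptors passed with higher signals in AD cells and 2 with higher signals in AI cells, beside 8.5% and 9.62% of all clusters. Among them Tgfbr1, the type I TGFβ receptor on which Smad2 and Smad3 are phosphorylated, had 0.32 (adjusted p = 0.00721), and Eng, or endoglin, had 0.45 (adjusted p = 0.00187). The type II receptor genes Tgfbr2 and Bmpr2 had 0.08 (adjusted p = 0.401) and 0.11 (adjusted p = 0.232), all from limma. Tgfbr2 lay below the median of every array, so that a lack of change cannot be read from it. The median of the list was 0.14.

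Fst and Furin were the 2 of 24 extracellular regulators that rose in AD cells, while 22 were not called. Without the fold threshold, 2 of the 24 passed in limma with higher signals in AD cells and 4 with lower signals, beside 8.5% and 9.62% of all clusters. Fst, or follistatin, which traps activins, stood at 7.47 ± 0.22 log2 (SD, n = 4) in AD cells and at 5.85 ± 0.05 log2 (SD, n = 4) in AI cells, where it lay below the median of each array. The phenotypes did not overlap, although AD replicate 4 was low at 7.14 log2, and the ratio was 3.08-fold. Furin, the protease that cleaves ligand precursors, had a log2 ratio of 0.86. The BMP antagonist genes Nog and Chrd had 0.03 and 0.10, both with signals below the median of every array. The median of the list was 0.02.

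Inside the cell, 2 of 32 nuclear partners and corepressors were higher in AD cells, 1 was lower and 29 were not called. Regardless of fold, 6 of the 32 passed in limma with higher signals in AD cells and 5 with lower signals, beside 8.5% and 9.62% of all clusters. Skil, the SnoN corepressor, which binds Smads and represses their targets, had a log2 ratio of 0.78, and Rbl1, the pocket protein p107, had 0.79. Jun, an AP-1 partner of Smad3, had -0.59 and fell under 1.5-fold with median centring and without AD replicate 1, AI replicate 2 or AI replicate 3 (-0.58 to -0.52). The coactivator genes Ep300 and Crebbp each had 0.01. None of 31 anchors, ubiquitin ligases, deubiquitinases and phosphatases of the Smads was called; at any fold 6 of them passed in limma with higher signals in AD cells and 1 with a lower signal, beside 8.5% and 9.62% of all clusters. The median log2 ratios were 0.09 and 0.06.

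Both branches induce transcripts, and Smad7 is counted in each of the 2 lists that follow. Of 19 measured transcripts that BMPs induce, 8 rose in AD cells, 11 were not called and none fell, where 1.39% of all clusters rose and 2.53% fell, with a median log2 ratio of 0.46. Smad6, Smad7 and Smad9 are 3 of the 8, and of the 16 that are not Smads 5 were higher, with a median of 0.15. Without the fold threshold, 10 of the 19 passed in limma with higher signals in AD cells and none with lower signals, beside 8.5% and 9.62% of all clusters. The list was chosen with earlier results of these data known, so that these counts are a description only. Id2, the helix-loop-helix inhibitor that the study followed, stood between 9.54 and 10.17 log2 in AD cells and between 5.46 and 5.70 log2 in AI cells, a log2 ratio of 4.39. Id3, Atoh8 and Id1 had log2 ratios of 2.25, 1.78 and 1.19. For Id3 and Atoh8, as for Id2, the AI signal lay below the median of each AI array. Dlx2, a homeobox gene, was the remaining one with 0.67; it lies outside the rule for named genes and was added to complete the count. Msx1, Msx2 and Hey1, other genes that BMPs induce in many tissues, had 0.05 (adjusted p = 0.692), 0.05 (adjusted p = 0.697) and 0.07 (adjusted p = 0.649) in limma. Msx1 and Msx2 lay below the median of every array, so that a lack of change cannot be read from them. Hey1 stood at 8.98 log2 in AD cells and at 8.91 log2 in AI cells.

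Of 27 measured transcripts that TGFβ induces through Smad2 and Smad3, 3 were higher in AD cells, 4 were lower and 20 were not called, with a median log2 ratio of -0.0034. The 3 that rose were Smad7, Skil and Furin. The 4 that fell were Acta2, smooth muscle actin, with -1.69, Ccn1, a matricellular protein gene, with -1.65, Tgfbi, an integrin-binding matrix gene, with -0.98, and Fn1, fibronectin, with -0.68, which was likewise named outside the rule to complete the count. Acta2 stood at 5.91 ± 0.06 log2 in AD cells and at 7.61 ± 0.09 log2 in AI cells (SD, n = 4 each), without overlap. Its signal lay below the array median in AD replicates 1 and 4, so that its true ratio may differ. Ccn2, a close relative of Ccn1, had 0.05 (adjusted p = 0.621 in limma), with a signal below the median of every array. Without the fold threshold, 3 of the 27 passed in limma with higher signals in AD cells and 7 with lower signals, beside 8.5% and 9.62% of all clusters. Whether the 2 lists differ in direction was not tested, and many of these transcripts answer to other signals as well.

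**Figure D5:**
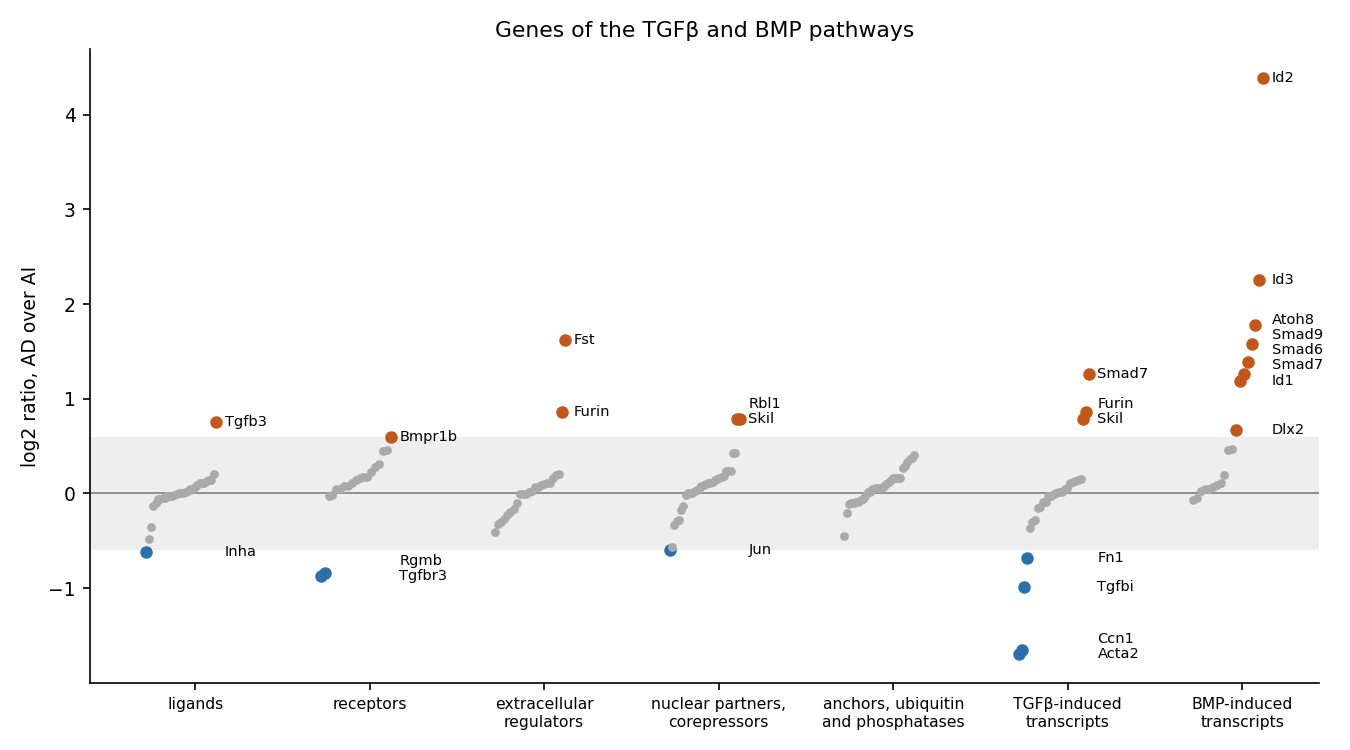
Log2 ratio of AD over AI (y axis) of the measured genes of 7 pathway lists (x axis), Smads included where a list holds them. Each dot is a gene, orange where called higher in AD cells, blue where called lower and grey where not called, and the grey band marks less than 1.5-fold; the BMP-induced transcripts hold 8 orange dots and no blue one, the TGFβ-induced transcripts 3 orange and 4 blue.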

How the data were processed

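Total RNA of Neuro2a cells, 4 AD and 4 AI samples, was hybridized to Affymetrix mouse gene ST arrays, 1 array per sample. The authors deposited log2 signals, made with Partek 6.5 and GCRMA per the submitters' processing notes. The methods name other versions and 2 further normalizations, which are not used here. GCRMA estimates background from probe sequence, so that ratios of dim clusters are the least certain. No array was identical to another.

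Clusters were named by the platform's gene annotation, 21789 of 35556 with a single symbol. A gene is read from its brightest cluster by mean over the 8 arrays, and older list symbols were matched through RefSeq gene numbers. A linear model of phenotype alone was fitted to the 8 arrays (lmFit and eBayes of limma 3.58.1, R 4.3.3). P-values were adjusted by Benjamini-Hochberg across all 35556 clusters, and a call needs an adjusted p under 0.05 and a ratio of at least 1.5-fold. Ratios are AD over AI. The fit was tested on simulated data. Exact tests used Python 3.11.15 and scipy 1.17.1, and plots matplotlib 3.10.9. Named genes are all members, up to 3 called genes per direction and list, the 3 nearest genes to each called member, and Id1 to Id3. The members and lists were chosen with earlier results of these data known. For arrays of equal replicate number, deviations from the group means correlated between -0.17 and 0.08. For unequal numbers the correlations lay between -0.18 and 0.25. With 4 arrays per group this cannot exclude a pairing, and the main fit modelled none. Alternatives were other scalings, a filter on dim clusters, other tests, a replicate block, other thresholds, the mean of a gene's clusters, and leaving out each array. Comparison of protein sequences was not run. Other experiments of the study were not analysed here.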

Additional observations from a re-analysis of the deposited data

Results flagged for a closer look

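Among 36 genes tested in both phenotypes, 72 groups of 4 arrays, 7 groups held an array set far from the other 3; chance alone flags about 1 group in 20. No Smad gene was among them. AD replicate 4 was the one set apart for Fst at 7.14 log2, below 7.57 in the nearest AD array, for Id1 at 7.92 log2, below 8.20 to 8.24, and for Slc36a1, one of the genes nearest to Smad3, at 9.71 log2, below 9.92 to 9.95. For Id3, AI replicate 4 at 4.78 log2 lay above 4.69 to 4.70 in the other AI arrays. For Rgmb, AD replicate 3 at 6.75 log2 lay above 6.55 to 6.57. For Dok4, one of the genes nearest to Smad6 and Smad7, AD replicate 2 at 8.94 log2 lay above 8.83 to 8.84, and AI replicate 4 at 7.57 log2 lay below 7.67 to 7.68.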

How the results depend on the processing

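Smad3, Smad6, Smad7 and Smad9 were called higher in AD cells under all 16 alternative scalings, filters, tests and left-out arrays, with log2 ratios of 1.06 to 1.19, 1.33 to 1.46, 1.22 to 1.34 and 1.56 to 1.66 and adjusted p-values of at most 0.00199. Smad1, Smad2, Smad4 and Smad5 were not called under any of them. Some of the 16 could not move a Smad ratio. Each Smad has a single cluster, so the mean of a gene's clusters left the ratios as they were. The filter on dim clusters and the unmoderated analysis of variance likewise could change only the p-values. The log2 ratio of Smad5 turned to 0.064 with median centring, which moved the median of all clusters by 0.0765. It ranged from -0.035 to 0.017 when single arrays were left out, positive without AD replicate 1, its lowest AD array. At any fold 1 Smad was lower in AD cells, and 3024 clusters were higher and 3420 lower. A 2-fold threshold kept the 4 Smads and left 81 clusters higher and 173 lower. With the replicate number as a block, the Smads called were the same 4, Smad9 having an adjusted p of 0.000352, and 476 clusters were higher and 876 lower. Left-out arrays gave 396 to 712 clusters higher and 775 to 978 lower. Under the same 16 alternatives, with the thresholds kept, Inha, Jun and Bmpr1b lost their call in 12 cases, and no other pathway gene chosen by the rule did; for these genes other thresholds were not run. Signals below the array medians, as that of Smad6 in AI cells, limit how exactly a ratio is known.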
